A study of Homo sapiens and Mus musculus with 55 samples.

Results

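The comparison of STING sgRNA with mock in SUM159PT cells rests on 6 of the 55 libraries of a series on MYC, STING and the immune response to breast tumours. SUM159PT is an established human triple-negative breast cancer line of mesenchymal character. Libraries S27 and S28 came from cells with the genotype Mock, named Par_for_CRISPR. The other 4 came from cells with the genotype STING sgRNA, as sgSTING_C1 (2 libraries) and sgSTING_C2 (2 libraries), called C1 and C2 here. An sgRNA directs the nuclease Cas9 to a chosen gene, here STING1. The labels do not say whether C1 and C2 are clones, pools or different guides, and they give no guide sequence. They do not say either that the mock cells carried a control guide. Each library is a bulk measurement, in which fewer cells with a transcript and less transcript per cell cannot be told apart.

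Members of the comparison were the genes whose mean over the 6 libraries was at least 10 normalized counts and which moved the same way from mock in C1 and in C2. Of the 26382 genes in the table, 15168 passed the minimum, and 11624 of these moved the same way in both. The other 3544 moved in opposite directions and were not counted as higher or lower. A gene is called higher or lower here when limma's test on log2(value + 1) also gave an adjusted p below 0.05 for the mean of C1 and C2 against mock. Log2 fold changes are on that scale, with their standard error (SE). Nothing in the labels says that the 2 libraries of a group came from separate cultures, so p-values measure the spread between these libraries only.

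STING, encoded by STING1 and listed in the table as TMEM173, is the endoplasmic reticulum adaptor of the cytosolic DNA sensing pathway. The enzyme cGAS (gene CGAS) detects DNA in the cytosol and makes cyclic GMP-AMP, which binds STING. STING then recruits the kinase TBK1, which activates the transcription factor IRF3, and it also activates NF-kB. IRF3 drives type I interferon genes and, directly or through interferon, a set of antiviral genes called interferon-stimulated genes. NF-kB drives inflammatory cytokines and its own inhibitors. In many tumour lines the pathway is kept at a low level, and signalling without added DNA can come from DNA that leaks from chromosomes or mitochondria.

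The 6 libraries held 6656263 to 7354358 reads each, recovered from the deposited values. Between the 2 libraries of a group, the chi-square per gene, which is near 1 when only read sampling differs, was 1.60 in mock, 1.18 in C1 and 1.14 in C2, so the mock libraries differed from each other most. The line's labelled identity was checked against its markers. VIM, the mesenchymal filament gene, stood at 12249.6 to 14128 normalized counts in all 6 libraries, ZEB1 at 162 to 229.6 and CD44 at 1742 to 2219. Epithelial keratin genes were abundant as well, with KRT7 at 7953 to 9723, KRT8 at 6863 to 8508 and KRT18 at 2685 to 3010. The epithelial adhesion gene EPCAM was at 0 to 1.90 and the oestrogen receptor gene ESR1 at 0.960 to 3.09.

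STING1 itself was lower with the sgRNA. The 2 mock libraries had 261 and 229 normalized counts, C1 had 94.9 and 114, and C2 had 101 and 92.7. Every sgRNA library lay below both mock libraries, and C1 and C2 overlapped each other. The log2 fold change was -1.28 ± 0.11 (SE; limma adjusted p = 1.29e-12), with -1.23 in C1 and -1.33 in C2. A transcript count does not show whether the remaining transcripts encode a whole protein, and protein was not measured here. Among the 8 genes on either side of STING1 in RefSeq order, 5 could be tested. PROB1, SPATA24, DNAJC18 and UBE2D2 were not called. CXXC5, which encodes a zinc finger protein and lies at place 7 in that order, had 55.3 and 44.2 in mock, 102 and 97.5 in C1 and 88.5 and 94.7 in C2, a log2 fold change of 0.94 ± 0.14 (adjusted p = 1.09e-06).

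Across the transcriptome, 5845 of 15168 tested genes (38.5%) were called. Of these, 2913 (19.2%) were higher and 2932 (19.3%) lower with STING sgRNA. Most changes were small, with a median absolute log2 fold change of 0.34 among called genes. By at least 2-fold, 279 genes (1.84%) were higher and 252 (1.66%) lower, and by at least 8-fold 17 were higher and 31 lower. In 5094 of the 5845 called genes the 4 sgRNA libraries did not overlap the 2 mock libraries. Over all tested genes 43.8% had no overlap. The call itself favours genes without overlap, so this separation is not further support. Leaving out the first mock library reduced the counts to 2168 higher and 1952 lower.

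C1 and C2 differed from mock to unequal extents. C1 alone had 3487 called genes (23% of those tested) and C2 alone 6722 (44.3%), from the same 2 mock libraries. Called in each alone were 1547 higher and 1335 lower genes. C2 against C1 gave 3025 called genes (19.9%), 1294 higher and 1731 lower in C2, although both carry the same genotype label. Without the second C1 library C1 alone had 2172 called genes, and without any single sgRNA library C2 against C1 had 1221 (second C2 library) to 1999 (first C2 library). With the GC adjustment C2 against C1 had 879.

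Base composition moved with the fold change. A GC content, from the longest GENCODE transcript, was available for 13187 tested genes (86.9%). The genes were ranked by it and split into 5 equal bins. The median log2 fold change went from 0.15 in the bin with the lowest GC content (median 38.4%) through 0.07, 0.00 and -0.10 to -0.17 in the bin with the highest (median 61.4%). In the lowest bin 37.8% of genes were higher and 5.61% lower. In the highest bin 8.61% were higher and 39.2% lower. The span of medians was 0.07 to -0.06 in C1 and 0.23 to -0.27 in C2. A smooth GC trend was therefore also taken off each library, an alternative chosen after the data had been seen. With that adjustment 2352 of the 13187 genes (17.8%) were higher and 2338 (17.7%) lower. Of those, 1916 and 1809 were also called without the adjustment. The 2-fold counts among the same genes went from 248 higher and 231 lower to 244 and 222.

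Interferon-stimulated genes split. Of the 46 on the list, 44 were in the table and 38 were tested. With STING sgRNA 13 of the 38 were lower (34.2%) and 8 higher (21.1%), against 19.3% and 19.2% of all tested genes. The higher share was thus near the background, and 17 were not called. The list's median log2 fold change was -0.03, beside -0.0037 over all tested genes. After GC adjustment 13 were lower and 9 higher. When only genes with a mean of at least 50 were tested, 8 were lower and 8 higher.

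OASL, which encodes an antiviral protein that enhances RNA sensing, fell furthest. Mock had 155 and 124 normalized counts, C1 1.90 and 4.19, and C2 4.11 and 3.09, for a log2 fold change of -5.05 ± 0.33 (adjusted p = 2.07e-16). HERC5, the ligase that attaches ISG15 to proteins, had 38.1 and 26.9 in mock, 2.85 and 2.10 in C1 and 3.09 and 2.06 in C2 (-3.24 ± 0.43, adjusted p = 5.96e-08). IFIT2, a member of a family that binds foreign RNA, had 100.1 and 91.2 in mock, 6.64 and 9.43 in C1 and 12.3 and 9.27 in C2 (-3.24 ± 0.27, adjusted p = 1.75e-13). In all 3 genes the sgRNA libraries sat near the bottom of the measured range and far below mock.

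The 2 other IFIT genes fell as well. IFIT1 had 76.3 and 52.8 in mock, 11.4 and 10.5 in C1 and 3.09 and 11.3 in C2 (-2.81 ± 0.33). IFIT3 had 229 and 231 in mock, 41.8 and 45.1 in C1 and 38.1 and 48.4 in C2 (-2.39 ± 0.15). ISG20, a ribonuclease, had 25.7 and 28.8 in mock, 6.64 and 2.10 in C1 and 8.23 and 10.3 in C2 (-2.00 ± 0.37). ISG15, the ubiquitin-like modifier, had 246 and 207 in mock, 85.4 and 80.7 in C1 and 77.2 and 68.0 in C2 (-1.53 ± 0.12). In these 4 genes no sgRNA library reached a mock library. IFIT1 and ISG20 also averaged below 10 with the sgRNA and passed the minimum only through mock. DDX60, a helicase, was at 180.2 and 199.6 in mock, 88.3 and 98.5 in C1 and 112 and 144 in C2 (-0.80 ± 0.12). The remaining 5 lower members, IFI6, UBE2L6, GBP1, PLSCR1 and BST2, had log2 fold changes of -0.48, -0.42, -0.28, -0.25 and -0.23, and BST2 overlapped mock in C1.

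The 8 higher members were TRIM22, OAS3, IFI44L, SAMD9, IFITM2, PARP9, PARP14 and DTX3L. TRIM22, an antiviral ligase, had 7.63 and 3.84 in mock, 32.3 and 22 in C1 and 22.6 and 19.6 in C2 (1.93 ± 0.31, adjusted p = 3.09e-06). OAS3, an antiviral oligoadenylate synthetase, had 381 and 439.6 in mock, 656 and 572 in C1 and 556 and 547 in C2 (0.51 ± 0.07, adjusted p = 2.82e-08). The other 6 had log2 fold changes from 0.19 (DTX3L, which overlapped mock) to 0.48 (IFI44L).

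**Figure D1:**
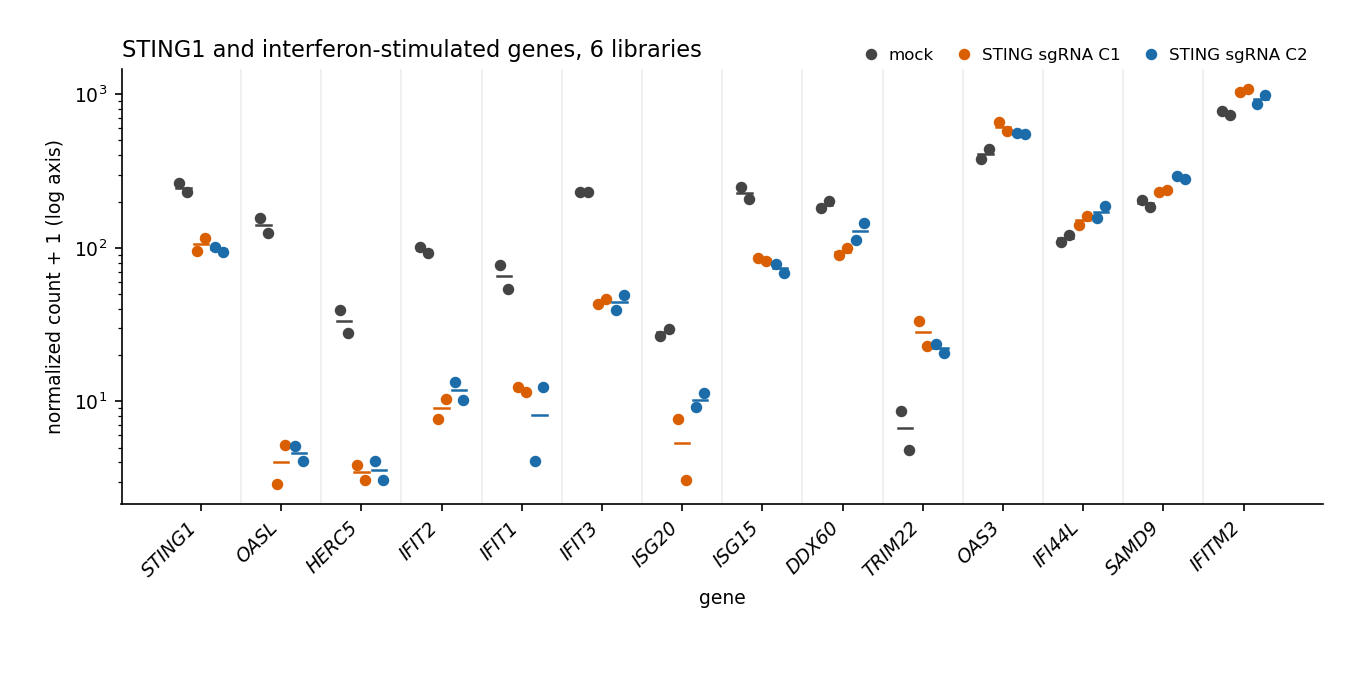
Normalized count + 1 (log axis) of STING1 and 13 interferon-stimulated genes in each of the 6 SUM159PT libraries, with 2 points per group and a bar at their mean. STING1 and OASL, HERC5, the IFIT genes, ISG20, ISG15 and DDX60 lie lower in all 4 STING sgRNA libraries than in mock, and TRIM22, OAS3, IFI44L, SAMD9 and IFITM2 lie higher.

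The promoters of lower and higher members were compared by their letters. The 250 bases before the start were read from RefSeq (GRCh38.p14) for the 6914 tested genes with a single entry. The core of the interferon-stimulated response element, where IRF3 and the interferon-activated complex ISGF3 bind, was searched as GAAANNGAAA or its reverse complement TTTCNNTTTC, with overlaps allowed. It was found in 171 of the 6914 promoters (2.47%). Among interferon-stimulated genes it was found in 8 of the 8 lower members with a promoter, in 4 of the 5 higher members and in 6 of the 11 that were not called. The NF-kB motif was searched as GGGNNTTTCC or GGAAANNCCC and was found in 142 promoters (2.05%). A match is a description of the letters and not a test of binding. The sequences, 5′ to 3′ on the strand of the gene, are 3 promoters of lower members, 1 of a higher member and that of TNFAIP3, a lower NF-kB target described further on. Capitals mark matches to either motif.
ISG15 (lower, chr1:1013247-1013496, plus strand): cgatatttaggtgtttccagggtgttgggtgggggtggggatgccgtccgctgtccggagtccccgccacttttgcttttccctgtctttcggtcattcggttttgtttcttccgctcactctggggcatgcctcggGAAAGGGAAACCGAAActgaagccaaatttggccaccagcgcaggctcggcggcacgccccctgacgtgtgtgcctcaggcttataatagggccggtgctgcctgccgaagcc
IFIT1 (lower, chr10:89392373-89392622, plus strand): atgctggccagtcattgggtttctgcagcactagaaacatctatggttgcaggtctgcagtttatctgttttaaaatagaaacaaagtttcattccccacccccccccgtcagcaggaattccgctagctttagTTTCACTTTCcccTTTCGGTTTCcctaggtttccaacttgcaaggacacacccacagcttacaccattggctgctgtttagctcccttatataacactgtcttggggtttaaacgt
HERC5 (lower, chr4:88456869-88457118, plus strand): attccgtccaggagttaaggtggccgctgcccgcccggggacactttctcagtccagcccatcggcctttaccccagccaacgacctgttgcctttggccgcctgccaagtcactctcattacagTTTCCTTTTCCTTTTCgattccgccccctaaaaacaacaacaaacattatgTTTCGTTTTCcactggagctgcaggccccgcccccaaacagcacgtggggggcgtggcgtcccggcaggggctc
OAS3 (higher, chr12:112938224-112938473, plus strand): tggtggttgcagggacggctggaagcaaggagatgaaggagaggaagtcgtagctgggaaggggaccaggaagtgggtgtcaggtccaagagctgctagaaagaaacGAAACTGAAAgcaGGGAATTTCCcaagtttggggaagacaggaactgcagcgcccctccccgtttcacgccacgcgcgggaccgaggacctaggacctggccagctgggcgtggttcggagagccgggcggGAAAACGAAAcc
TNFAIP3 (lower, chr6:137867009-137867258, plus strand): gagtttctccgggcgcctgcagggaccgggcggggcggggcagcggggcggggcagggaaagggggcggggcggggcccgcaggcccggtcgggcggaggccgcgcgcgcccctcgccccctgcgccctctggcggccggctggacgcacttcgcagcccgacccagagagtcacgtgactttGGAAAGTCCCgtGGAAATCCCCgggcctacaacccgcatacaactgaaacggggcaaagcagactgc
The matches of ISG15 begin 113 and 107 bases before the start and overlap each other, those of IFIT1 begin 116 and 103 bases before it, and those of HERC5 begin 125, 119 and 74 bases before it. OAS3, whose count was higher, has response element matches beginning 143 and 12 bases before its start and an NF-kB match at 130. TNFAIP3 has NF-kB matches at 67 and 55 bases.

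Among chemokines that attract T cells, CCL5, CXCL10 and CXCL11 were near the detection limit in this line. CCL5 had 5.72 and 4.80 normalized counts in mock and no read in any of the 4 sgRNA libraries. With 3 reads as the most that 0 observed reads in the 4 libraries allow, and the mock mean taken as exact, CCL5 was at least 6.92-fold lower. CXCL11 had 5.72 and 7.68 in mock, 0 and 1.05 in C1 and 1.03 and 0 in C2. That is 14 against 2 reads, a ratio of 13.2 with a 95% interval of 3.03 to 119.8 for counting error only. CXCL10 had 5.72 and 0.960 in mock, 0.949 and 0 in C1 and 2.06 and 0 in C2, a ratio of 4.40 (1.01 to 26.4) that rests on 7 against 3 reads and mostly on the first mock library. The interferon gene IFNB1 was not analysed here. Of the 9 on the list, 5 were in the table and 2 were tested, CXCL16 and CCL20. Fitted without the minimum on the mean, 2 members of the list were lower. CXCL16 had 120.2 and 117 in mock, 139 and 133 in C1 and 124 and 144 in C2 and was not called. CCL20 had 19.1 and 23 in mock and 12.4 to 19.9 with the sgRNA (adjusted p = 0.368).

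Of 12 chemokines and colony-stimulating factors that act on neutrophils and monocytes, 7 were in the table and 3 were tested. Of these 2 were lower, against 19.3% of all tested genes. CXCL8, which encodes interleukin-8, had 156 and 133 in mock, 67.4 and 54.5 in C1 and 54.5 and 68.0 in C2 (-1.24 ± 0.14, adjusted p = 2.97e-09). CXCL2 had 195 and 165 in mock, 104 and 90.2 in C1 and 95.7 and 119 in C2 (-0.81 ± 0.12, adjusted p = 5.28e-07). Both were lower in all 4 sgRNA libraries than in either mock library. CSF1, the macrophage growth factor, had 650.4 and 664 in mock and 641.5 to 654 with the sgRNA and was not called (-0.02 ± 0.05).

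Other members of the core pathway changed less than STING1. Of the 14 core genes tested, 3 were higher (21.4%) and 4 lower (28.6%), STING1 among the lower. Over all tested genes 19.2% were higher and 19.3% lower. All 3 higher calls of the list were lost without the first mock library. CGAS had 258 and 281 in mock, 334 and 321 in C1 and 313 and 360.4 in C2 (0.30 ± 0.08, adjusted p = 0.00173). That call was lost without the first mock library (0.24, adjusted p = 0.0599) and by DESeq2 on recovered reads (adjusted p = 0.0609). TBK1 had 345 and 377 in mock, 311 and 326 in C1 and 406 and 449 in C2, so C1 lay below mock and C2 above it (0.03 ± 0.07, adjusted p = 0.763). IRF3 had 587 and 562 in mock, 497 and 516 in C1 and 445 and 409 in C2 (-0.31 ± 0.06, adjusted p = 9.33e-05).

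The NF-kB arm held the largest core change after STING1. NFKB2, the precursor of the p52 subunit, had 459.7 and 458 in mock, 310.3 and 282 in C1 and 255 and 276 in C2 (-0.71 ± 0.07, adjusted p = 1.11e-10). TRAF6, an adaptor ligase, was higher by 0.38, a call lost without the first mock library (0.34, adjusted p = 0.0604) and by DESeq2 (adjusted p = 0.0923).

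Among 29 tested regulators of the pathway, 4 were higher (13.8%, against 19.2% of all tested genes) and 11 lower (37.9%, against 19.3%). Their median was -0.13. With the GC adjustment 3 were higher and 8 lower, with a median of -0.05. ENPP1, the enzyme that degrades extracellular cyclic GMP-AMP, had 143 and 179 in mock, 244 and 235 in C1 and 282 and 274 in C2 (0.68 ± 0.09, adjusted p = 5.51e-08). NPC1, a lysosomal cholesterol transporter that takes STING to the lysosome, was lower (-0.39 ± 0.05), as was the efflux transporter ABCC1 (-0.38 ± 0.06).

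In the interferon receptor and JAK-STAT list, 6 of 18 tested members were higher (33.3%) and 3 lower (16.7%). Over all tested genes 19.2% were higher and 19.3% lower. The lower count of the list was 1 without the first mock library or without the second C2 library. Its higher count was 2 by DESeq2 and 4 with the GC adjustment. SOCS3, a feedback inhibitor of cytokine signalling, had 202 and 215 in mock, 121 and 132 in C1 and 99.8 and 104 in C2 (-0.87 ± 0.11, adjusted p = 8.81e-09). Its relative SOCS1 went the other way, from 19.1 and 14.4 in mock to 37 and 40.9 in C1 and 28.8 and 25.7 in C2 (0.93 ± 0.24, adjusted p = 0.00147). The kinase gene JAK2 was higher (0.45 ± 0.12). Neither SOCS1 (adjusted p = 0.0773) nor JAK2 (adjusted p = 0.0669) was called by DESeq2. Of the 8 RNA sensors, 3 were higher (37.5%) and 1 lower (12.5%), and all 3 higher calls were lost without the first mock library. RIGI, the cytosolic RNA sensor listed as DDX58, had 47.7 and 54.7 in mock, 27.5 and 32.5 in C1 and 38.1 and 37.1 in C2 (-0.59 ± 0.20, adjusted p = 0.0144), and the call was lost without the second mock library (adjusted p = 0.146) and by DESeq2 (adjusted p = 0.166). TLR3, the endosomal RNA sensor, was higher by 0.46. The TLR3 call was lost without the first mock library (adjusted p = 0.0673).

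Inflammatory NF-kB targets were mostly lower. Of 17 tested, 11 were lower (64.7%) and 3 higher (17.6%), against 19.3% and 19.2% of all tested genes. The list had a median of -0.49. After GC adjustment 10 were lower and 3 higher, with a median of -0.36. SAA1, an acute phase protein, had 2397 and 2277 in mock, 902 and 942 in C1 and 606 and 672 in C2 (-1.60 ± 0.05, adjusted p = 2.39e-28). LIF, an interleukin-6 family cytokine, had 25.7 and 25 in mock, 18 and 12.6 in C1 and 5.14 and 10.3 in C2 (-1.19 ± 0.32, adjusted p = 0.00265). No sgRNA library reached mock in either gene, although LIF was not called by DESeq2 (adjusted p = 0.0669), and SAA1 was also lower in C2 than in C1 (-0.53 ± 0.06).

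Feedback inhibitors of NF-kB were among the lower members. TNFAIP3, which encodes the deubiquitinase A20, had 161 and 163 in mock, 88.3 and 90.2 in C1 and 102 and 111 in C2 (-0.73 ± 0.12, adjusted p = 2.13e-06). BIRC3, an inhibitor of apoptosis, had 139 and 140.1 in mock, 66.4 and 69.2 in C1 and 81.3 and 74.1 in C2 (-0.94 ± 0.13, adjusted p = 1.67e-07). The subunit gene RELB was lower (-0.74 ± 0.18), as were TNIP1 (-0.52 ± 0.06) and SOD2 (-0.54 ± 0.04). IL6 had 18.1 and 36.5 in mock, 13.3 and 19.9 in C1 and 9.26 and 10.3 in C2 (-0.97 ± 0.31), with the second C1 library above the first mock library.

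The 3 higher NF-kB targets were PTGS2, C3 and TNFAIP2. C3, the central complement component, had 2147 and 2279 in mock, 3478 and 3540.1 in C1 and 3489.5 and 3555 in C2 (0.67 ± 0.04, adjusted p = 2.32e-19). PTGS2, which encodes cyclooxygenase-2, had 6.68 and 16.3 in mock, 24.7 and 33.5 in C1 and 17.5 and 25.7 in C2 (1.16 ± 0.30). Without the first mock library PTGS2 was no longer called (0.57, adjusted p = 0.215), nor was it by DESeq2 (adjusted p = 0.0967).

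The same line was also measured with the gene added back. In a separate table, SUM159PT cells with the genotype STING sgRNA+STING ORF were set against STING sgRNA+GFP ORF, with 2 libraries each and no library shared with the sgRNA table. An ORF is an open reading frame expressed from a construct. Counts at STING1 were 65.4 and 81.1 with GFP and 1599 and 1455 with the STING ORF, a log2 fold change of 4.37 ± 0.12. There, 1964 of 14915 tested genes (13.2%) were higher and 1911 (12.8%) lower. Without the first GFP library the ORF comparison had 1257 called genes in place of 3875, and without the second 1489. The tables were normalized separately, so no difference between them was tested.

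Of the 13 lower interferon-stimulated genes, 12 were tested with the ORF and 7 were higher there and 5 not called. OASL had 3.49 and 1.89 with GFP and 42.9 and 45.9 with the STING ORF (3.66 ± 0.39, adjusted p = 7.36e-08). IFIT1 (2.59 ± 0.33), IFIT2 (2.21 ± 0.28), IFIT3 (1.54 ± 0.19), ISG15 (1.01 ± 0.15), GBP1 (0.83) and BST2 (0.34) were the other 6. HERC5 was below the minimum there, at 3.49 and 0 with GFP and 13 and 8.53 with the ORF. DDX60, lower with the sgRNA, was at 67.1 and 93.4 with GFP and 61.9 and 88.5 with the ORF and was not called.

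All 11 lower NF-kB targets were tested with the ORF, and 10 were higher there, against 13.2% of all genes and 18.9% of sgRNA-lower genes. BIRC3 went from 60.2 and 69.8 with GFP to 224 and 288 (1.95 ± 0.15), TNFAIP3 from 86.3 and 89.6 to 321 and 307 (1.83 ± 0.13), and IL6 from 13.1 and 12.3 to 39.9 and 55.5 (1.81 ± 0.28). CXCL8 went from 48.0 and 45.3 to 277 and 294 (2.59 ± 0.15). Of the 8 interferon-stimulated genes higher with the sgRNA, 1 was lower with the ORF (IFITM2, -0.27), 1 was higher (PARP9, 0.44) and 6 were not called. C3 was higher in both comparisons, from 4414 and 4396 with GFP to 6023 and 5545 with the ORF (0.39 ± 0.06).

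MDA-MB-436, the other human triple-negative line, had the same sgRNA design. There 3793 of 15305 tested genes (24.8%) were higher and 3522 (23%) lower. STING1 had a log2 fold change of -1.85 ± 0.15. All 13 interferon-stimulated genes lower in SUM159PT were lower in MDA-MB-436, where OASL changed by -7.09, IFIT2 by -5.60 and ISG15 by -3.69. All 8 that were higher in SUM159PT were lower in MDA-MB-436 as well, with TRIM22 at -2.78 and OAS3 at -0.70. The 3 higher NF-kB targets also went the other way there (C3 -0.85, PTGS2 -0.99, TNFAIP2 -0.54). Of the 11 NF-kB targets lower in SUM159PT, 8 were lower in MDA-MB-436, 2 higher and 1 not called. Among all genes lower in SUM159PT, 47.9% were lower there and 12.6% higher. TNFAIP3, lower in SUM159PT, was higher in MDA-MB-436 (0.22 ± 0.07), and CXCL8 was not called there (0.04 ± 0.07). CCL5 was abundant in that line's mock cells, at 414 and 397, and at 0 to 2.09 with the sgRNA.

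**Figure D2:**
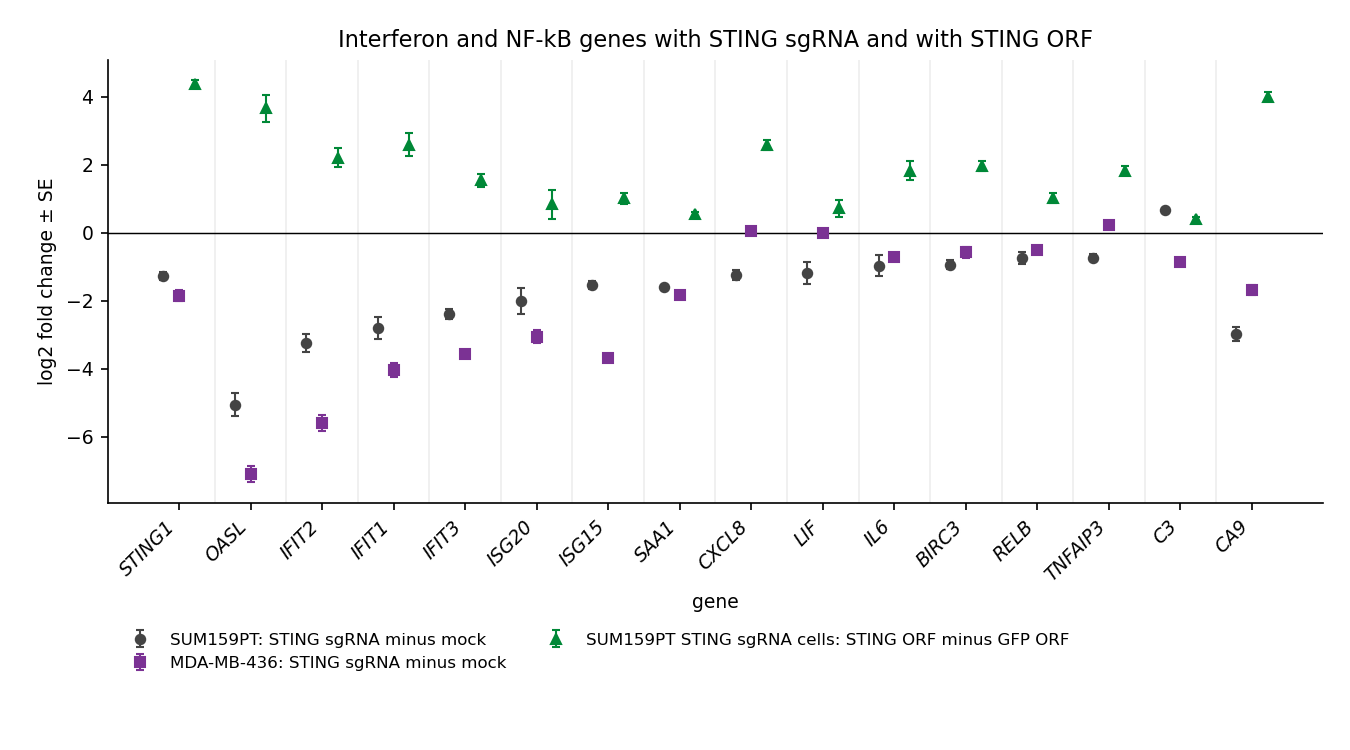
Log2 fold change ± SE of 16 genes for STING sgRNA minus mock in SUM159PT (circles) and in MDA-MB-436 (squares), and for STING ORF minus GFP ORF in SUM159PT STING sgRNA cells (triangles). The interferon genes, the NF-kB genes from SAA1 to TNFAIP3 and CA9 lie below 0 with the sgRNA in SUM159PT and above 0 with the ORF, and C3 lies above 0 in both SUM159PT comparisons. ISG20 was not called with the ORF.

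Over all genes, more of the sgRNA-lower genes were higher than lower with the ORF, and the share grew once GC content was adjusted in both tables. Without adjustment, 542 of 2867 genes lower with the sgRNA (18.9%) were higher with the ORF and 349 (12.2%) lower. Of 2864 genes higher with the sgRNA, 511 (17.8%) were lower with the ORF and 340 (11.9%) higher. In the ORF table the median log2 fold change was 0.13 in the bin with the lowest GC content and -0.17 in the highest, the same order as with the sgRNA. With the adjustment, 868 of 2286 lower genes (38%) were higher with the ORF and 228 (9.97%) lower, beside 19.5% and 17.9% of all genes. Of 2313 higher genes, 823 (35.6%) were lower with the ORF and 273 (11.8%) higher. These 868 and 823 genes are 34.1% of the ORF-higher and 35.4% of the ORF-lower genes.

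The share of genes called the same way in MDA-MB-436 fell under the same step. Without adjustment, 1372 of 2867 genes lower in SUM159PT (47.9%) were lower and 362 (12.6%) higher in MDA-MB-436. Of 2726 higher genes, 1231 (45.2%) were higher and 358 (13.1%) lower. They make up 39% of that line's lower and 32.5% of its higher genes. The GC medians in MDA-MB-436 ran from 0.22 to -0.30. With the adjustment, 651 of 2290 lower genes (28.4%) were lower and 421 (18.4%) higher, beside 17.3% and 18.4% of all genes. Of 2187 higher genes, 599 (27.4%) were higher and 403 (18.4%) lower. These are 28.5% of that line's lower and 24.5% of its higher genes.

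Glycolysis and hypoxia genes were lower as a group. Of 27 tested, 21 were lower (77.8%, against 19.3% of all tested genes) and 6 not called. The median was -0.25 (-0.26 with the GC adjustment). CA9, the hypoxia-induced carbonic anhydrase, had 204 and 149.7 in mock, 32.3 and 18.9 in C1 and 21.6 and 15.4 in C2 (-2.98 ± 0.21, adjusted p = 9.35e-16). PFKFB4, a regulator of glycolytic flux, had 126 and 122 in mock, 37 and 51.4 in C1 and 42.2 and 42.2 in C2 (-1.51 ± 0.16). SLC2A3, a glucose transporter, had 654 and 648 in mock, 368 and 339.6 in C1 and 315 and 332 in C2 (-0.94 ± 0.07). With the ORF, 16 of the 21 lower members were higher and 5 not called, beside 18.9% higher among all sgRNA-lower genes. CA9 rose there from 66.3 and 55.6 to 1034 and 944 (4.00 ± 0.12). In MDA-MB-436, 10 of the 21 were lower and 4 higher, beside 47.9% and 12.6% of all genes lower in SUM159PT.

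MYC-activated genes were lower as a group, while MYC was not called. MYC had 2306 and 2188 in mock, 2393 and 2302 in C1 and 2401 and 2389 in C2 (0.08 ± 0.04, adjusted p = 0.104). It was called higher with the GC adjustment (0.16, adjusted p = 0.000637) and without the first mock library (0.12, adjusted p = 0.0304). Of its 36 listed targets, 23 were lower (63.9%) and 1 higher (2.78%), against 19.3% and 19.2% of all tested genes. Their median was -0.14. After GC adjustment 22 were lower. The largest were ribosome assembly genes, PPAN (-0.75 ± 0.15), WDR74 (-0.70 ± 0.07) and RRP9 (-0.53 ± 0.07). WDR74 had 565 and 512 in mock, 413 and 335 in C1 and 283 and 308 in C2. Across the alternatives, the 2-fold threshold aside, the count of lower targets was 15 to 25. In MDA-MB-436, 9 of the 23 lower targets were higher and 4 lower, beside 12.6% and 47.9% of all genes lower in SUM159PT. With the ORF, 9 were higher and 1 lower, beside 18.9% and 12.2% of all sgRNA-lower genes.

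Mitosis genes were mostly higher. Of 24 mitosis genes 15 were higher (62.5%, against 19.2% of all tested genes) and 3 lower (12.5%, against 19.3%). Their median was 0.15, and 1 was lower without the first mock library or either C1 library. Adjusted for GC content, 12 were higher and 2 lower, with a median of 0.10. KIF20A, a kinesin of cytokinesis, had 1266 and 1342 in mock, 1845 and 1885 in C1 and 2016 and 1954 in C2 (0.56 ± 0.04). The kinetochore genes CENPE (0.49 ± 0.05) and CENPF (0.40 ± 0.04) were higher, and more so in C2 than in C1. With the ORF, 8 of the 15 higher mitosis genes were higher again and 7 not called. Among all sgRNA-higher genes 11.9% were higher with the ORF and 17.8% lower. Of 26 E2F and replication genes 5 were higher (3 without the second mock or the first C1 library) and 6 lower (19.2% and 23.1%), among them RFC3 (0.51) and MCM7 (-0.30). Of 21 p53 targets 4 were higher and 4 lower. Both lists were near the 19.2% higher and 19.3% lower of all tested genes. The p53 targets named by size were BTG2 (0.83), PLK2 (-0.64) and CDKN1A (0.57).

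Genes of stress and growth-factor responses were lower more often than higher. The background for these lists was 19.3% lower and 19.2% higher over all tested genes. Of 20 immediate early genes 10 were lower (50%) and 10 not called. DUSP5, a phosphatase that ERK signalling induces, had 242 and 269 in mock, 105 and 128 in C1 and 109 and 95.8 in C2 (-1.22 ± 0.11). EGR1 had 306 and 308 in mock, 158 and 140.5 in C1 and 150.2 and 159.6 in C2 (-1.01 ± 0.09), and DUSP1 was lower by a log2 fold change of -0.53. Among 19 genes that respond to unfolded protein or amino acid shortage 8 were lower and 2 higher (11 and 1 with the GC adjustment), led by ATF3 (-0.90), DDIT4 (-0.60) and SDF2L1 (-0.59). Of 16 YAP and TEAD targets 7 were lower and 4 higher, among them CCN1 (-0.71), ANKRD1 (0.64) and the tissue factor gene F3 (-0.63).

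Of 21 cholesterol synthesis genes 10 were lower (47.6%) and 1 higher (4.76%), against 19.3% and 19.2% of all tested genes. CYP51A1, a demethylase of that pathway, had 124 and 118 in mock, 95.8 and 101 in C1 and 47.3 and 42.2 in C2 (-0.86 ± 0.14), so most of its difference lay in C2. MVD (-0.46) and NSDHL (-0.34) followed. With the ORF, 5 of the 10 lower cholesterol genes were lower again and 5 not called. Among all sgRNA-lower genes 12.2% were lower with the ORF and 18.9% higher. Of 22 oxidative phosphorylation genes 4 were lower and 2 higher (18.2% and 9.09%, at or below the background), among them CYC1 (-0.42), NDUFS3 (-0.23) and COX6C (0.21), and with the GC adjustment 2 were lower. COX6C was not called with the GC adjustment (adjusted p = 0.136) or without the second mock library (adjusted p = 0.29), nor NDUFS3 with the GC adjustment (adjusted p = 0.114). Of 30 lysosome and autophagy genes 7 were higher and 6 lower (23.3% and 20%, near the background; 10 and 4 with the GC adjustment), among them the transcription factor TFEB (0.72), the protease CTSL (-0.66) and LAMP1 (0.53).

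Antigen presentation genes were close to the background, at 23.8% lower and 19% higher against 19.3% and 19.2% of all tested genes. Of 21 class I presentation genes 5 were lower and 4 higher, and with the GC adjustment 3 were lower and 6 higher, so the direction of the list depended on that step. Without the first mock library 3 were lower. PSMB10, an immunoproteasome subunit, had 41.0 and 46.1 in mock, 42.7 and 29.4 in C1 and 19.5 and 26.8 in C2 (-0.59 ± 0.22, adjusted p = 0.0292), with the first C1 library between the mock libraries. Its call was lost with the GC adjustment (adjusted p = 0.11) and when any of 4 libraries was left out (adjusted p from 0.0828 to 0.186). The peptide-trimming enzymes ERAP1 (0.55 ± 0.06) and ERAP2 (0.31 ± 0.06) were higher. Of 8 checkpoint ligands 3 were lower (37.5%) and 2 higher (25%), both above the background in a short list. By DESeq2 1 was lower and 1 higher. TNFRSF14 was higher (1.14 ± 0.22) and the poliovirus receptor gene PVR lower (-0.28 ± 0.04). PDCD1LG2, which encodes PD-L2, was higher by 0.44 (adjusted p = 0.0478), a call lost with the GC adjustment and when any of 5 libraries was left out (adjusted p from 0.0589 to 0.188). CD274, which encodes PD-L1, had 180.2 and 175 in mock, 154 and 149.9 in C1 and 151 and 162 in C2 and was not called (-0.20 ± 0.10, adjusted p = 0.102).

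**Figure D3:**
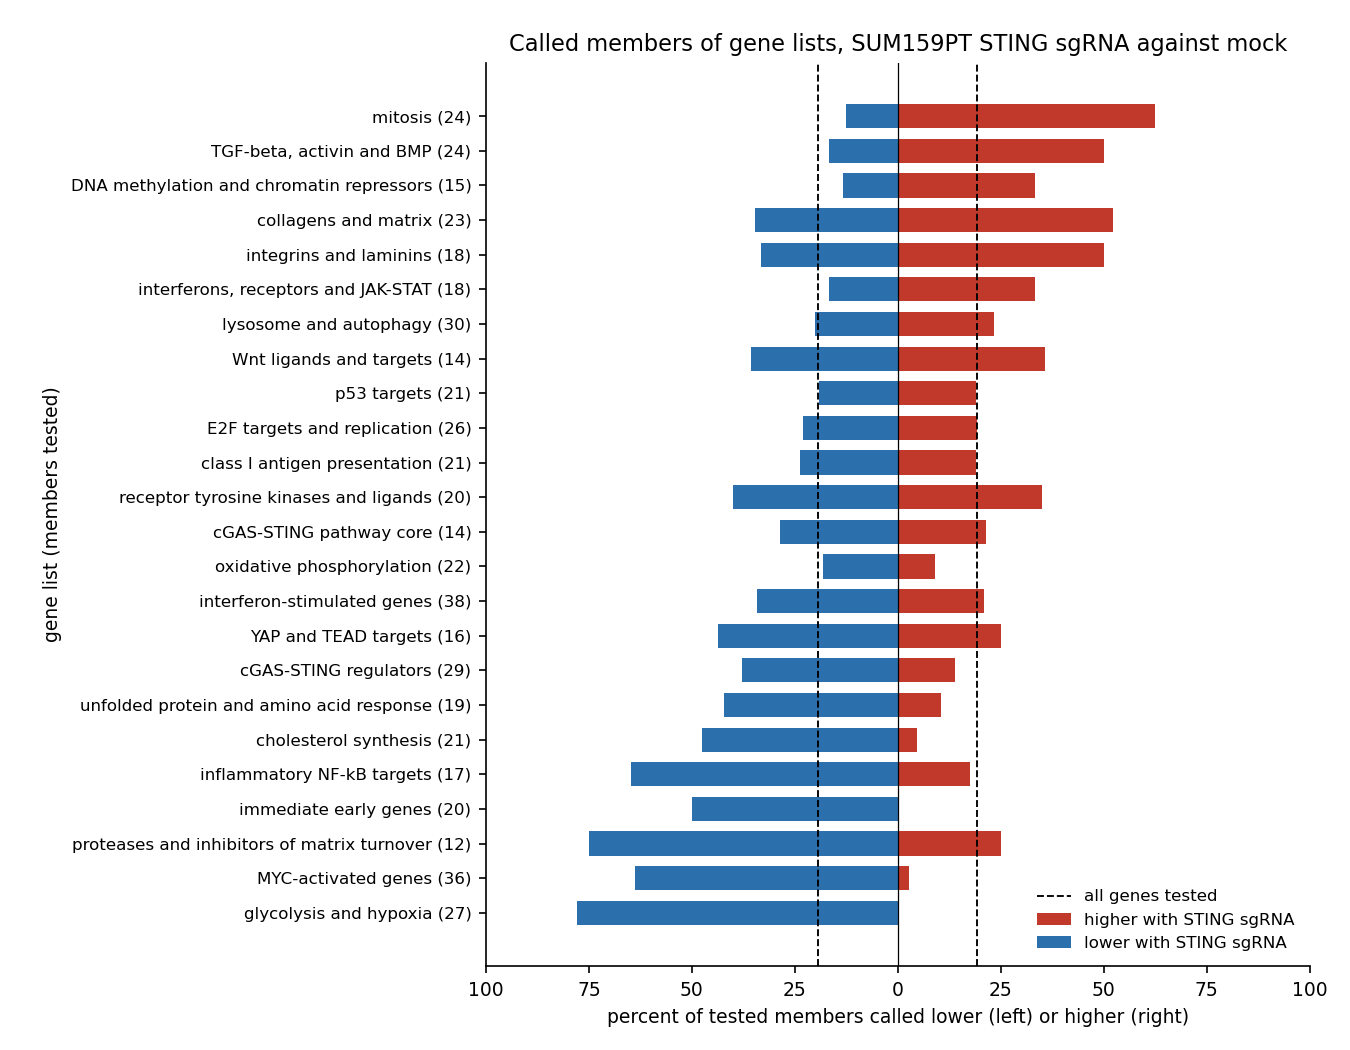
Percent of tested members of each gene list (number tested in brackets, lists with at least 12) called lower (left, blue) or higher (right, red) with STING sgRNA in SUM159PT. Dashed lines mark 19.3% lower and 19.2% higher over all tested genes, and glycolysis and hypoxia (21 of 27 lower) and mitosis (15 of 24 higher) stand at the ends.

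Matrix genes held some of the largest changes, in both directions. Of 23 collagen and matrix genes 12 were higher (52.2%) and 8 lower (34.8%), against 19.2% and 19.3% of all tested genes. COL6A3, a chain of collagen VI, had 1172 and 1265 in mock, 81.6 and 58.7 in C1 and 53.5 and 61.8 in C2 (-4.25 ± 0.11, adjusted p = 2.54e-31). COL3A1, the chain of collagen III, had 92.5 and 93.1 in mock, 1509 and 1435 in C1 and 1302 and 1373 in C2 (3.90 ± 0.06, adjusted p = 4.41e-40). COL1A1, a chain of collagen I, had 1144 and 1052 in mock, 282 and 243 in C1 and 249 and 253 in C2 (-2.09 ± 0.07, adjusted p = 4.01e-27). The 3 collagen genes moved apart, and in each the 4 sgRNA libraries lay on 1 side of mock.

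Enzymes of matrix turnover were lower more often than higher, 9 (75%) against 3 (25%) of 12. Over all tested genes 19.3% were lower and 19.2% higher. TIMP3, an inhibitor of metalloproteinases, had 357 and 387 in mock and no read in any of the 4 sgRNA libraries. By the bound used for CCL5, with the mock mean taken as exact, it was at least 489-fold lower. It also had no read with the GFP ORF and at most 1 read with the STING ORF. ADAMTS1, a protease, had 56.3 and 55.7 in mock and 0 to 1.05 with the sgRNA, a ratio of 110.4 (95% interval 29.9 to 922, counting error only) from 117 against 2 reads. MMP2 was lower (-1.56 ± 0.24). SYK and EPB41L3 were the other 2 tested genes with no read in the 4 sgRNA libraries. SYK had 38.1 and 22.1 in mock and EPB41L3 23.8 and 36.5, so by the same bound they were at least 39.6-fold and 39.7-fold lower. TIMP3, ADAMTS1, SYK and EPB41L3 passed the minimum of 10 only through mock, the last 2 with means of 10.04 and 10.05 over all libraries. A gene without sgRNA reads and with fewer reads in mock would not have been tested. SYK and EPB41L3 fall outside the rule for named genes and were chosen after their values were seen.

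Receptors and adhesion genes moved both ways. For the counts that follow, the background over all tested genes was 19.2% higher and 19.3% lower. Of 18 integrins and laminins 9 were higher and 6 lower, among them ITGB3 (-0.94) and LAMC1 (0.61). Of 20 receptor tyrosine kinases and ligands 7 were higher and 8 lower (5 without the second mock library). The growth factor FGF5 had 28.6 and 33.6 in mock, 2.85 and 2.10 in C1 and 4.11 and 2.06 in C2 (-3.11 ± 0.43). PDGFRA, a growth factor receptor, was lower (-2.40 ± 0.40), and EREG, a ligand of the EGF receptor, was higher (2.41 ± 0.31). Of 24 genes of TGF-beta, activin and BMP signalling 12 were higher and 4 lower, with a median of 0.29, led by SMAD9 (1.15), the BMP antagonist NOG (-1.05) and the inhibitory SMAD6 (0.75). Of 14 Wnt genes 5 were higher and 5 lower (2 lower with the GC adjustment and 3 without the second mock library), led by the receptors FZD2 (-1.13), FZD1 (0.86) and LGR4 (0.81). The drug efflux list had 3 of 7 higher, ABCC4 (0.48), ABCC3 (0.47) and ABCB1 (0.38), and 1 lower. Of 15 DNA methylation and chromatin repressor genes 5 were higher (2 without the first mock library) and 2 lower, led by TET2 (0.42), TRIM28 (-0.36) and DNMT3A (-0.31). The call of TET2 was lost without the first mock library (0.23, adjusted p = 0.11) and that of ABCB1 without the second (0.31, adjusted p = 0.113). DNMT3A was not called with the GC adjustment (adjusted p = 0.131) or when any of 5 libraries was left out (adjusted p from 0.06 to 0.328).

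The ranking took called genes whose mean was at least 50 and whose 4 sgRNA libraries did not overlap mock. The 8 at the top and the 8 at the bottom are described, so their separation from mock was set by this choice. FAM213A, which encodes a redox protein, had 1.91 and 0.960 in mock, 121 and 113 in C1 and 98.8 and 90.6 in C2, a ratio of 74.0 (95% interval 25.2 to 360.3, counting error only) from 3 reads in mock. CRYAB, a small heat shock protein, had 21.9 and 22.1 in mock, 397 and 413 in C1 and 384 and 369 in C2 (4.09 ± 0.10). H19, the imprinted long noncoding RNA, had 91.6 and 102 in mock, 949 and 1019 in C1 and 746 and 772 in C2 (3.15 ± 0.07). The other 5 highest were RP11-232D9.3 (4.75), CNTNAP2 (4.70), COL3A1, CYP4B1 (3.83) and BTNL9 (3.29).

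At the other end, KRT81, a hair keratin, had 218 and 245 in mock, 13.3 and 6.29 in C1 and 12.3 and 10.3 in C2 (-4.37 ± 0.24). BEX1 had 874 and 850.4 in mock, 92.1 and 109 in C1 and 98.8 and 87.5 in C2 (-3.15 ± 0.09). SLC12A8, a transporter, had 278 and 294 in mock, 19.9 and 15.7 in C1 and 21.6 and 15.4 in C2 (-3.92 ± 0.19). The remaining lowest genes were TIMP3, COL6A3, CA9, AKAP12 (-2.74) and EFNB2 (-2.67), a ligand of Eph receptors.

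**Figure D4:**
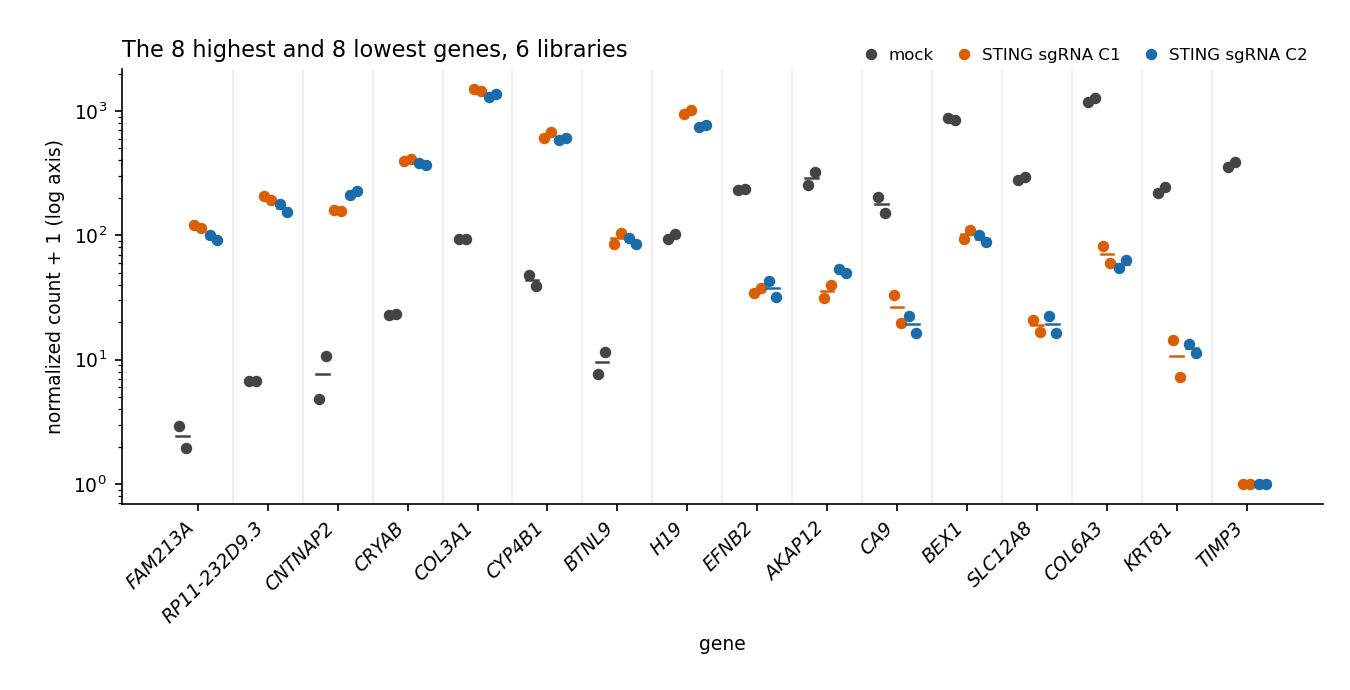
Normalized count + 1 (log axis) of the 8 most raised and 8 most lowered genes (called, mean at least 50) in each SUM159PT library, with 2 points per group and a bar at their mean. Genes were chosen so that the 4 STING sgRNA libraries lie apart from the 2 mock libraries. TIMP3 is at 0 in all 4 sgRNA libraries.

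The add-back moved some of these genes toward mock and others not. Of the 8 highest, 5 were lower with the ORF, 2 higher and 1 not called. COL3A1 went from 809 and 778 with GFP to 247 and 228 with the ORF (-1.74 ± 0.10), H19 from 613 and 656 to 186 and 169.6 (-1.83 ± 0.11), and FAM213A from 93.3 and 96.2 to 41.9 and 36.3 (-1.26 ± 0.19). CNTNAP2 rose further, from 104 and 98.1 to 214 and 227 (1.12 ± 0.14). CRYAB stood at 105 and 106 with GFP and 97.8 and 78.9 with the ORF and was not called. Of the 8 lowest, 7 were tested with the ORF. BEX1 (1.67 ± 0.11), SLC12A8 (1.30 ± 0.22), AKAP12 (0.77 ± 0.14) and CA9 were higher. COL6A3 (-0.68 ± 0.20) and KRT81 (-1.27 ± 0.30) were lower still, and EFNB2 was not called. Among all collagen and matrix genes higher with the sgRNA, 8 of 12 were lower with the ORF and 4 not called. Of the 8 lower with the sgRNA, 4 were higher and 4 lower with the ORF.

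Markers of cell types moved with the genotype. For all marker counts that follow, the background over all tested genes was 19.2% higher and 19.3% lower. Of 5 tested basal markers 3 were higher, and the list summed to 909 to 949 in the 2 mock libraries and 1329 to 1423 in the 4 sgRNA libraries. TP63, the basal transcription factor, had 12.4 and 11.5 in mock, 106 and 90.2 in C1 and 108 and 116 in C2 (3.03 ± 0.17, adjusted p = 1.29e-18). With the ORF it was lower, from 92.4 and 92.4 to 27 and 36.3 (-1.53 ± 0.20). The basal keratin KRT5 had 189 and 182 in mock and 297 to 370.1 with the sgRNA (0.85 ± 0.08). Mesenchymal markers had 6 of 13 tested higher and 3 lower, with a sum of 27842 to 28103 in mock and 34642 to 35564 with the sgRNA. FN1, which encodes fibronectin, makes up part of that sum, at 7555 and 8352 in mock and 12663 to 13980.4 with the sgRNA (0.74 ± 0.03). Epithelial markers had 2 of 6 higher and 2 lower (1 lower without either mock library, by DESeq2 or with the GC adjustment; 3 higher without the first mock library or with that adjustment, and 3 lower without the first C2 library), and summed to 18663 to 19873 in mock and 18414 to 20877 with the sgRNA. Luminal markers had 2 of 5 higher, with sums of 1988 to 2032 and 2099 to 2271, and FOXA1 was higher (1.06 ± 0.28).

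Markers of non-tumour cells also differed. Of 3 tested endothelial markers 2 were higher and 1, PECAM1, lower (-0.90 ± 0.32). The lower call was lost by DESeq2 and without either mock library, the second C1 library or the first C2 library. The 7 in the table, of 8 listed, summed to 90.6 to 96.9 in mock and 229.6 to 273 with the sgRNA. KDR, the VEGF receptor, had 32.4 and 23 in mock, 156 and 152 in C1 and 159 and 144 in C2 (2.44 ± 0.14), and EMCN was higher (1.10 ± 0.17). The defining endothelial cadherin gene CDH5 was at 0 in 5 libraries and at 2.06 in the first C2 library. PTPRC, the leukocyte gene for CD45, had 92.5 and 115 in mock, 2.85 and 3.14 in C1 and 4.11 and 0 in C2 (-5.12 ± 0.44). It was the only myeloid marker that passed the minimum, which it did only through mock, of 9 listed and 8 in the table. The 8 together summed to 117 to 134 in mock and 11.3 to 17.1 with the sgRNA, with PTPRC the largest in mock. T and NK cell markers summed to 2.10 to 4.74 in all 6 libraries, from 2 genes in the table. Fibroblast markers had 2 of 7 higher and 2 lower (1 each way without the second mock library). Without the first C2 library 1 was higher. The list summed to 1371 to 1443 in mock and 1757 to 1966 with the sgRNA. COL3A1 had the largest mean over all 6 libraries through its sgRNA counts, and its mock counts, given above, were far lower. Whether cells other than SUM159PT contributed was not tested.

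Position on the genome marked out chromosome 13. Among genes with a mean of at least 50, the 180 on chromosome 13 had a median log2 fold change of 0.37 (0.31 in C1 and 0.42 in C2), and 110 of them (61.1%) were higher and 11 (6.11%) lower. The 10133 genes on the other chromosomes considered had a median of -0.01, with 22% higher and 22.4% lower, and single chromosomes ranged from -0.15 (chromosome 19) to 0.07 (chromosome 18). With the GC adjustment the chromosome 13 median was 0.28, with 53.9% higher against 18.7% elsewhere. In RefSeq order the first 60 genes had a median of 0.55 and 48 of 60 higher. The next 60 had 0.33 and 35 higher. The last 60 had 0.19 and 27 higher. Genes varied within each stretch: the first 60 include LATS2 (-0.21 in C1 and -0.17 in C2), and the last 60 include GAS6 (2.42 and 2.19) and EFNB2 (-2.69 and -2.65). LATS2 and GAS6 were chosen after their values were seen. Genes named above for their lists also lie on chromosome 13, with RFC3 and SMAD9 in the first stretch and ABCC4 and LAMP1 in the last. The part of the chromosome-wide shift in their changes was not tested. For the first stretch the medians by library were 0.47 and 0.49 in C1 and 0.58 and 0.65 in C2. The median of chromosome 13 was 0.07 in MDA-MB-436 and 0.08 with the ORF. DNA copy number was not measured, chromosomes 8 and Y are not shown, and no test was made of this pattern.

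**Figure D5:**
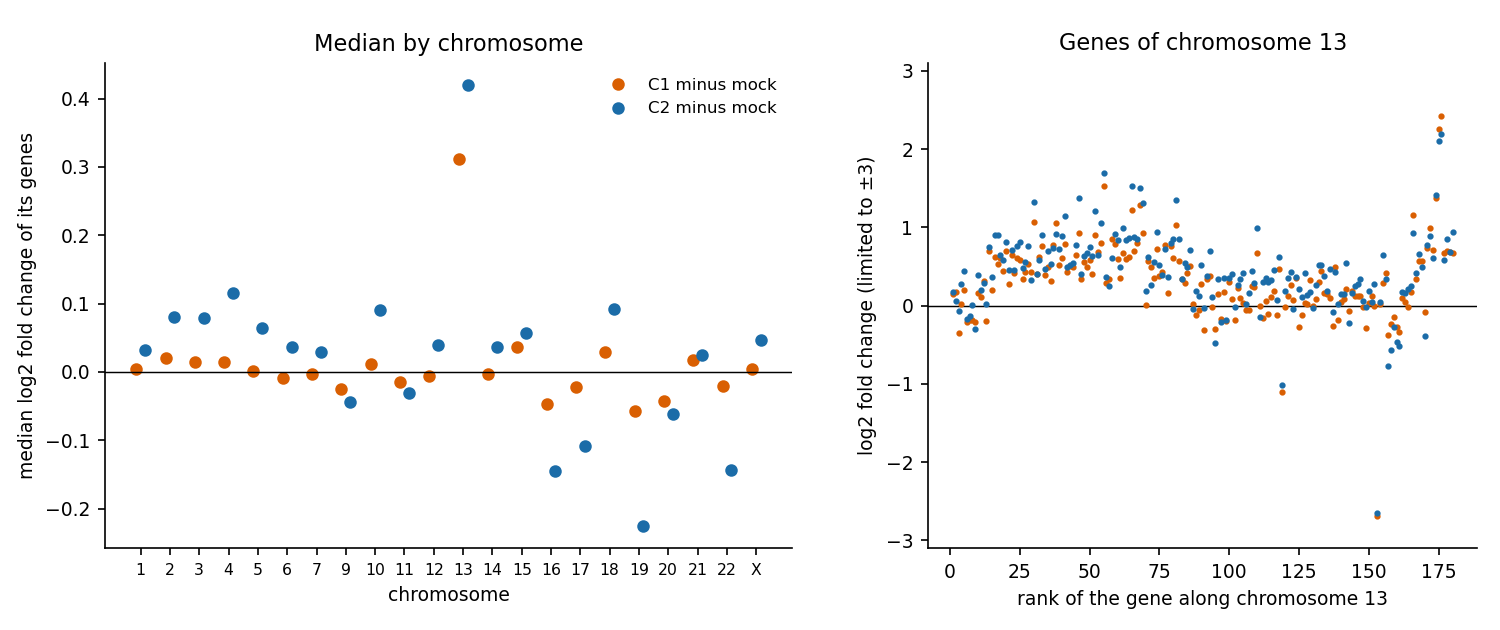
Left, median log2 fold change against mock of the genes of each chromosome (mean of at least 50) in C1 and C2. Right, log2 fold change of each of the 180 chromosome 13 genes in RefSeq order, limited to ±3. Chromosome 13 has medians of 0.31 and 0.42, above every other chromosome shown.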

How the data were processed

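Per the labels' protocols, the Maxwell RSC simplyRNA kit gave the RNA. HISAT2, featureCounts, StringTie and DESeq2 stand in the submitters' processing notes, with no version. The build they aligned to is not given in the sources. The authors deposited normalized counts (a signal scaled within each table): every value was a whole read count divided by 1 factor per library (tolerance 0.05 reads), so reads could be recovered. Values were tested as log2(value + 1) with limma 3.58.1 (trend, R 4.3.3) over genes whose mean in the table was at least 10, with Benjamini-Hochberg adjustment. Replicate numbers were not used as a block. Members and gene lists were chosen with earlier results of these data known. The rule named STING1, its axis and neighbours, 3 called members per list by size, and, among called genes whose mean was at least 50, the 8 at the top and the 8 at the bottom. Other list members and markers were named after their values were seen. Alternatives included edgeR 4.0.16 and DESeq2 1.42.0 on recovered reads, other filters and pseudocounts, quantile normalization, leaving out each library and, added later, a GC adjustment with a lowess curve per library. Promoters came from RefSeq (GRCh38.p14). The fitting scripts were tested on simulated data. Some genes are not reported here.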

Additional observations from a re-analysis of the deposited data

Results flagged for a closer look

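C1 and C2 carry the same genotype label, but 22 of the named genes differed between them by limma's test of C2 against C1 (adjusted p below 0.05), 13 lower and 9 higher in C2. The largest was CYP51A1, with a log2 fold change of -1.12 ± 0.16 (adjusted p = 2.14e-06), which came from 95.8 and 101 normalized counts in C1 and 47.3 and 42.2 in C2. The other lower genes were SAA1 (-0.53), SDF2L1 (-0.5), DDIT4 (-0.44), H19 (-0.37), WDR74 (-0.33), RRP9 (-0.3), MVD (-0.29), NDUFS3 (-0.29), CYC1 (-0.27), IRF3 (-0.25), CCN1 (-0.17) and TRIM28 (-0.16). The higher genes were AKAP12 (0.54), CENPE (0.5), SMAD9 (0.44), TBK1 (0.42), TLR3 (0.36), CENPF (0.31), ERAP1 (0.26), ERAP2 (0.2) and LAMC1 (0.15). With the GC adjustment 21 of the 22 kept their sign, and 8 kept an adjusted p below 0.05: CYP51A1, SAA1, DDIT4, CCN1, LAMC1, CENPF, TBK1 and CENPE. TRIM28 was the gene that changed sign (0.07 with the adjustment).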

How the results depend on the processing

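With edgeR on recovered reads, 2893 genes were higher and 3059 lower, and all 100 tested named genes stayed on their side of the threshold, as they did with a pseudocount of 4. DESeq2 gave 1559 higher and 1627 lower in place of 2913 and 2932, 1439 for C1 alone, 3888 for C2 alone, 969 for C2 against C1, 4265 in MDA-MB-436 and 1645 with the ORF; 14 named genes lost their call (among them ABCB1, CGAS, COX6C, DNMT3A, JAK2, LIF, NDUFS3, PDCD1LG2, PSMB10, PTGS2, RIGI, SOCS1 and TRAF6). A change of at least 2-fold left 279 and 252, 504, 658, 75, 492 and 483 in the same order, and a call in C1 alone and in C2 alone 1547 and 1335. Without the filter on low values 1925 were higher, C1 alone had 1501, the ORF 884 and C2 against C1 had 0 by limma (5541 of 26382 genes at unadjusted p below 0.05, and 3061 by edgeR with the filter), and 13 named genes lost their call, CTSL, TFEB and TET2 among them. The GC adjustment gave 879 for C2 against C1 and 4729 in MDA-MB-436; 6 named genes lost their call and MYC gained one. The cause was not tested for any of these. Leaving out 1 library gave 2168 to 2681 higher, 1952 to 2711 lower, 2172 to 3314 for C1 alone, 5114 to 6598 for C2 alone, 1221 to 3403 for C2 against C1, 4980 to 7248 in MDA-MB-436 and 1257 to 5463 with the ORF. TBK1, which was not called, had -0.032 to 0.095 when a mock library was left out (negative without the first), and changed sign too without the second C2 library (-0.0043) and with the GC adjustment (-0.10). Same-numbered libraries of different groups did not deviate together (correlations 0.05 for mock and C1, 0.0093 for mock and C2 and -0.05 for C1 and C2). With the replicate block 2926 genes were higher and 2956 lower, and PDCD1LG2 was the 1 named gene to lose its call (adjusted p = 0.0509). With 6656263 to 7354358 reads per library, genes under a mean of 10, CCL5, CXCL10 and CXCL11 among them, were left out by the filter and rest on few reads.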
